A study of Mus musculus with 9 samples.

Results

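The proteasome is the barrel-shaped protease that degrades proteins tagged with ubiquitin, and its subunits are encoded by a family of genes whose mouse symbols begin with Psm. The protein-coding genes of the count table with the symbols Psma, Psmb, Psmc, Psmd, Psme, Psmf or Psmg and a number were taken, which gave 49 genes of 54532 listed and of 21995 protein-coding. They comprise 14 constitutive subunits of the core particle (Psma1 to Psma7 and Psmb1 to Psmb7), 3 immunoproteasome subunits (Psmb8, Psmb9 and Psmb10) and 2 subunits known from testis and thymus (Psma8 and Psmb11). They also comprise 6 ATPases and 11 other subunits of the regulatory particle, 5 activators, 1 inhibitor and 7 assembly chaperones, of which 4 act on the core and 3 on the regulatory base. The symbols alone set the membership, but the family was picked with earlier results of these data known.

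RNA was sequenced from injured muscle of C57/BL6J mice in 3 groups of 3 libraries, and every group had its tibialis anterior muscle injured with barium chloride, which destroys fibres and starts regeneration. Young PBS mice (4 months) and old PBS mice (24 months) received injections of PBS, and old rMETRNL mice (24 months) received injections of recombinant METRNL (meteorin-like), a secreted protein. Muscles were injected 3 times, the later injections at 24 and 48 hours after injury. The dose appears as 0.1 ug in some places and as 0.1 ng in others. The sources also differ on the sample, since the labels name a suspension of muscle cells and day 4, whereas whole muscle at day 8 appears elsewhere. The labels do not say that the libraries of a group come from separate animals, so the p-values measure the spread between these libraries, which may be technical.

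Proteins tagged with ubiquitin are bound by the regulatory particle, unfolded by its ATPases and fed into the core particle, where 3 beta subunits cut the chain. Psmb6 carries the caspase-like activity, Psmb7 the trypsin-like activity and Psmb5 the chymotrypsin-like activity. In cells exposed to interferon gamma, and in many leukocytes, newly built cores take up Psmb9, Psmb10 and Psmb8 in their places, and the PA28 activator made of Psme1 and Psme2 can cap them, which favours peptides for MHC class I. In muscle, the ubiquitin-proteasome route is known for the breakdown of contractile proteins in atrophy, and subunit genes are known targets of the transcription factor Nfe2l1.

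Totals ranged from 16238700 to 22522560 counts, so that a floor of 3 counts corresponded to between 0.131 and 0.202 CPM (counts scaled to a library of fixed size) on library sizes scaled by TMM, edgeR's normalization factor. This floor covers counting error only. The old PBS libraries stood apart from each other, with TMM factors of 0.915 in old PBS 2, 1.16 in old PBS 3 and 0.827 in old PBS 4, against 0.958 to 1.07 in the other 6 libraries. All 8 muscle fibre markers were abundant in every library, and their summed level was 73530, 51810 and 103400 CPM in old PBS 2, 3 and 4, against 65950 to 89020 in the other groups. All 8 myeloid markers were detected, at summed levels of 1025 to 1717 CPM, and the 6 lymphocyte markers summed to 7.82 to 14.9 CPM. The 4 fibro-adipogenic markers summed to 2088, 2838 and 1844 CPM in old PBS 2, 3 and 4, below the 2966 to 4900 CPM of every other library. Of these, Col1a1 was at 1194, 2111 and 663 CPM in old PBS, against 1988 to 4131 elsewhere. Pdgfra was at 77.6, 77.3 and 66.8, against 78.8 to 116. Dcn (762, 557 and 1002 CPM) and Ly6a (53.8, 92.6 and 113) were not low as a set in old PBS. The median log2 deviation of the 4 markers from their means over 9 libraries was -0.36, -0.05 and 0.02. The 3 endothelial markers summed to 165 CPM in old PBS 4 and to 230 to 339 CPM elsewhere. The 4 brain markers summed to 42.0 to 97.5 CPM and the 3 liver markers to 6.79 to 72.8 CPM in the old PBS libraries, and to at most 0.943 and 0.161 CPM in the other groups. The part of these differences in the proteasome values below was not tested. In bulk RNA, fewer cells of a type and less RNA per cell cannot be told apart.

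The share of each library taken up by proteasome transcripts depended on the scaling. The 49 genes received 69097 to 97140 counts per library. This was 0.467%, 0.430% and 0.422% of all counts in young PBS 1, 2 and 3. It was 0.426%, 0.472% and 0.487% in old PBS 2, 3 and 4, and 0.429%, 0.439% and 0.431% in old rMETRNL 1, 2 and 3. The means were 0.440% ± 0.0239 (SD, n = 3), 0.462% ± 0.0320 and 0.433% ± 0.00507, and the groups overlapped. The difference was 0.0217 percentage points between old and young PBS and -0.0283 between old rMETRNL and old PBS, neither larger than the spread of the old PBS libraries (exact permutation test, two-sided, p = 0.3 and 0.4, each 0.9 after adjustment over 6 such tests). With 3 libraries a group, the smallest p this test allows is 0.1. On TMM library sizes, which the levels below use, the share was 0.488%, 0.429% and 0.398% in young PBS, 0.465%, 0.405% and 0.589% in old PBS and 0.404%, 0.411% and 0.439% in old rMETRNL. The means were then 0.438% ± 0.0455 (SD, n = 3), 0.486% ± 0.0936 and 0.418% ± 0.0188, with old PBS 4 the highest library and the groups overlapping.

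To set genes beside each other, levels were divided by the length of each gene's principal transcript in kilobases. The core and the regulatory particle were the most abundant, as seen in the plot of levels by role. The median over members was 116 CPM per kilobase for the core beta subunits, 73.3 for the core alpha subunits, 80.0 for the ATPases and 61.5 for the other regulatory subunits. It was 38.7 for the activators, 14.3 for the immunoproteasome subunits, 13.0 for the core chaperones and 8.49 for the base chaperones. The inhibitor Psmf1, known as PI31, was at 4.89 CPM per kilobase.

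**Figure D1:**
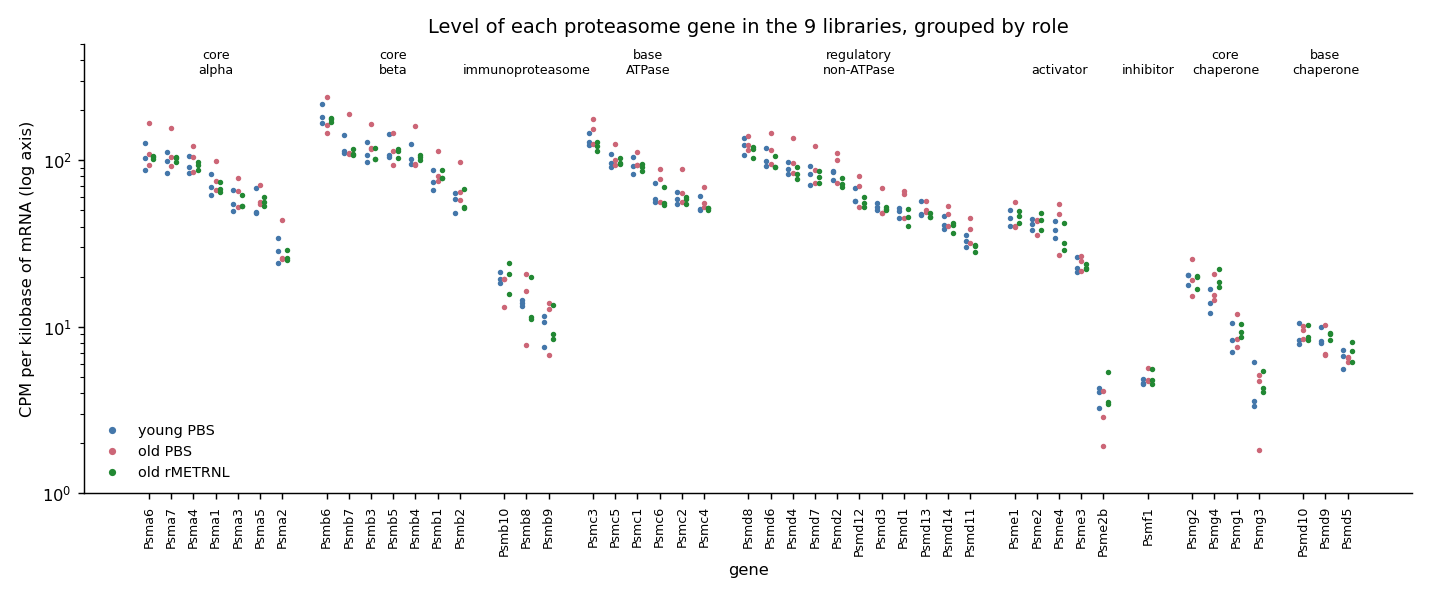
Level of each proteasome gene (points, 1 per library, CPM per kilobase of mRNA on a log axis) by role, colored by group. Means over 9 libraries run from 29.1 to 182 for the core and regulatory subunits and from 3.64 to 19.5 for the immunoproteasome subunits, chaperones, Psmf1 and Psme2b.

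Subunits that stand side by side in the particle were not at equal transcript levels. Among the alpha subunits, which form the outer rings and the gate, levels ran from 29.1 CPM per kilobase for Psma2 to 111 for Psma6, a 3.82-fold range. Among the beta subunits they ran from 62.3 for Psmb2 to 182 for Psmb6, 2.93-fold. Among the ATPases, which form the unfolding ring, they ran from 54.9 for Psmc4 to 135 for Psmc3, 2.46-fold, and among the other regulatory subunits from 33.8 for Psmd11 to 121 for Psmd8, 3.57-fold. These orders rest on the transcript chosen for the length. With all annotated exons merged, the medians of the alpha and beta subunits were 43.4 and 44.4, side by side, and that of the ATPases was above both, at 59.8. The highest beta subunit was then Psmb5 at 116, with Psmb6 at 77.8, and the lowest was Psmb1 at 31.5.

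The highest and lowest members of each role are given by library. Psma6 was at 131, 107 and 91.1 CPM in young PBS 1 to 3, at 114, 97.4 and 176 in old PBS 2 to 4, and at 111, 106 and 108 in old rMETRNL 1 to 3. Psma2 was at 98.9, 83.3 and 70.5 CPM in young PBS, at 73.8, 74.9 and 127 in old PBS, and at 72.9, 75.7 and 84.3 in old rMETRNL. Old PBS 4 was the highest library for both, and the groups overlapped. Psmb2 was at 54.3, 50.6 and 41.4 CPM in young PBS, at 55.0, 49.3 and 83.8 in old PBS, and at 44.9, 44.7 and 57.4 in old rMETRNL. Psmc3, an ATPase, was at 238, 211 and 203 CPM in young PBS, at 251, 204 and 291 in old PBS, and at 186, 199 and 210 in old rMETRNL. Again old PBS 4 was highest. Psmc4, another ATPase, was at 88.1, 73.4 and 72.6 CPM in young PBS, at 80.3, 75.6 and 99.5 in old PBS, and at 72.6, 74.9 and 74.2 in old rMETRNL. Psmd8, a lid subunit, was at 209, 190 and 166 CPM in young PBS, at 177, 190 and 214 in old PBS, and at 160, 184 and 180 in old rMETRNL. Psmd11, a lid subunit that joins base and core, was at 101, 93.2 and 86.0 CPM in young PBS, at 110, 90.4 and 127 in old PBS, and at 80.6, 88.7 and 87.5 in old rMETRNL. For Psmc4 and Psmd11 every old rMETRNL library lay below every old PBS library.

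Psma8, the alpha subunit of the testis proteasome, and Psmb11, the beta subunit of the thymus proteasome, were close to the floor. Psma8 had 0, 4 and 4 counts in young PBS, 0, 12 and 3 in old PBS and 4, 3 and 3 in old rMETRNL. Psmb11 had 0, 0 and 2 counts in young PBS, 0 in each old PBS library, and 1, 10 and 0 in old rMETRNL. Neither passed edgeR's filter on low counts, so that 47 of the 49 genes were tested in each comparison, and the sentences on tested genes refer to these 47.

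The constitutive catalytic subunits were far above their immunoproteasome counterparts in all 9 libraries, as the plot of the catalytic pairs shows. Psmb6 was at 174, 134 and 146 CPM in young PBS, at 116, 129 and 192 in old PBS and at 143, 141 and 135 in old rMETRNL. Its counterpart Psmb9 was at 10.2, 14.4 and 15.6 CPM in young PBS, at 9.08, 18.7 and 17.3 in old PBS and at 18.1, 11.4 and 12.2 in old rMETRNL. Old PBS 2 was the lowest library for both genes, and the highest was old PBS 4 for Psmb6 and old PBS 3 for Psmb9. Psmb7 was at 164, 132 and 128 CPM in young PBS, at 129, 127 and 221 in old PBS and at 126, 125 and 135 in old rMETRNL. Its counterpart Psmb10 was at 25.5, 24.1 and 28.02 CPM in young PBS, at 17.2, 25.5 and 25.3 in old PBS and at 31.9, 27.3 and 20.5 in old rMETRNL. Psmb10 was lowest in old PBS 2 and highest in old rMETRNL 1. Psmb5 was at 130, 97.2 and 94.4 CPM in young PBS, at 83.8, 103 and 132 in old PBS and at 102, 106 and 92.3 in old rMETRNL. Its counterpart Psmb8 was at 22.6, 23.5 and 21.7 CPM in young PBS, at 12.7, 33.7 and 26.8 in old PBS and at 32.5, 18.04 and 18.6 in old rMETRNL. For Psmb8 the young libraries lay close together, and both old groups spread beyond them in either direction.

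**Figure D2:**
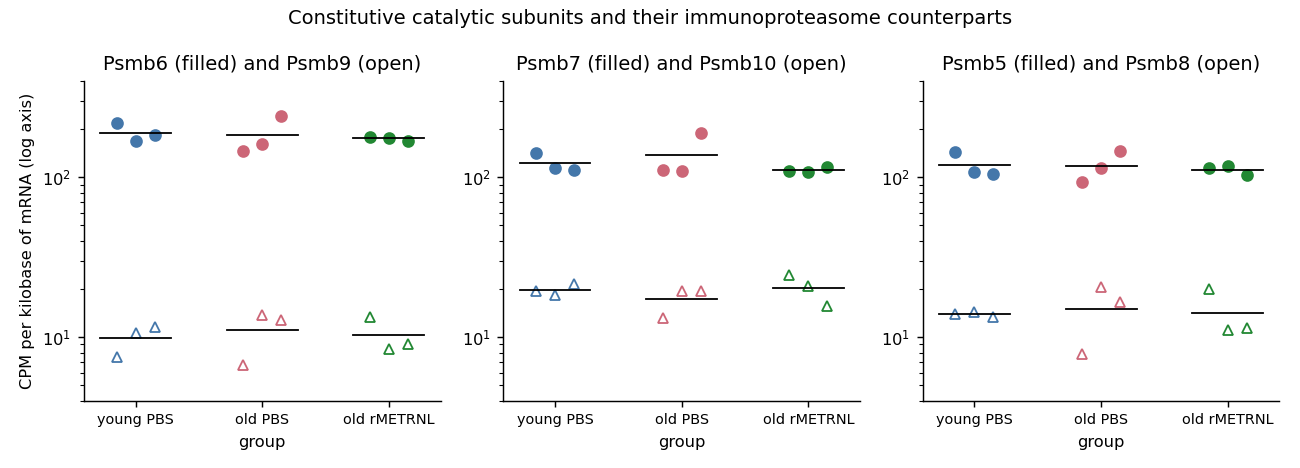
Constitutive catalytic subunits (filled circles) and immunoproteasome counterparts (open triangles) in CPM per kilobase of mRNA (log axis), 1 point per library with a bar at the group mean. Group means are 111 to 190 for the constitutive genes and 9.91 to 20.3 for the counterparts, and the groups overlap for every gene.

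Per kilobase, the 3 immunoproteasome genes made up a small part of the transcripts of catalytic subunits. Their share was 7.51%, 10.02% and 10.4% in young PBS 1 to 3, 7.31%, 12.3% and 7.76% in old PBS 2 to 4 and 12.5%, 9.12% and 8.50% in old rMETRNL 1 to 3. The means were 9.31% ± 1.57, 9.11% ± 2.74 and 10.1% ± 2.18 (SD, n = 3), and the groups overlapped. The differences of -0.198 percentage points (old against young PBS), 0.942 (old rMETRNL against old PBS) and 0.744 (old rMETRNL against young PBS) were within the spread (exact permutation test, two-sided, p = 0.9, 0.5 and 0.7, each 0.9 after adjustment over the 6 tests). Without old PBS 3 the old PBS share was 7.54%, and without old rMETRNL 1 the old rMETRNL share was 8.81%. Single pairs differed in level. The ratio of Psmb10 to Psmb7 was 0.101 to 0.224 over the 9 libraries, that of Psmb8 to Psmb5 was 0.0838 to 0.181, and that of Psmb9 to Psmb6 was 0.0345 to 0.0853.

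The members of a pair can be told apart by sequence. The coding sequences of Psmb5 and Psmb8 shared 65.5% of 779 aligned bases, with 18 bases as the longest identical run, those of Psmb6 and Psmb9 shared 63.7% with a run of 11, and those of Psmb7 and Psmb10 shared 63.1% with a run of 15. Positions are those of the annotation, on GRCm38, whereas the submitters' processing notes name mm9. Psmb8 is at chr17:34197721-34201454 (plus strand) and Psmb9 at chr17:34181987-34187764 (minus strand), both within the MHC, and Psmb10 at chr8:105935735-105938444 (minus strand). Psmb5 is at chr14:54614119-54618022 (minus strand), Psmb6 at chr11:70525367-70527858 (plus strand) and Psmb7 at chr2:38588036-38644087 (minus strand). Psmb9 shares 212 exon bases with Tap1 on the opposite strand, and Psmb7 shares 405 with Nek6. Since no strand setting is stated, reads there cannot be told apart.

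The sequences before the start sites differ too, and stretches are shown here for the core genes and for Psmb8 because each holds a match to a motif known from the pathway. RefSeq start sites on GRCm38.p6 were listed for 41 of the 49 genes, and the 250 bases before each were searched on both strands for TGACNNNGC (the antioxidant response element, which Nfe2l1 binds), the interferon-stimulated response element (2 copies of GAAA with 2 bases between them), TTCNNNGAA (the gamma-interferon-activated site) and CCAAT (the NF-Y box). No motif overlaps another in the stretches shown, where capitals mark the match.
Psmb5 (chr14:54618026-54618125, minus strand, antioxidant response element): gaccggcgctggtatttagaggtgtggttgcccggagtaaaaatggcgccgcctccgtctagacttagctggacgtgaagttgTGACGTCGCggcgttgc
Psmb6 (chr11:70525257-70525356, plus strand, antioxidant response element): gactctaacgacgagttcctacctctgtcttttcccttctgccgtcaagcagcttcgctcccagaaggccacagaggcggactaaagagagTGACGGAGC
Psmb8 (chr17:34198088-34198116, plus strand, gamma-interferon-activated site): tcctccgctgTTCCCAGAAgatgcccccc

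The stretches of Psmb5 and Psmb6 lie just before the gene, and the match of Psmb8 begins 97 bases before a RefSeq start that is 474 bases inside the gene as the annotation draws it. The antioxidant element was found before 5 of the 41 genes (Psmb5, Psmb6, Psmc6, Psmd9 and Psmd12), 12.2%, against 11.5% of all 27025 genes with an entry. The gamma-interferon-activated site was found before 2 (Psmb8 and Psmg1), against 8.13% of all genes, and the interferon-stimulated element before 3 (Psmb3, Psmd4 and Psmd9), against 3.46%. The NF-Y box was found before 14, which is 34.1% against 37.5%. A match describes letters in this window, and the shares among these genes were close to those of all genes or rest on a few genes.

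The most visible pattern in the members was between libraries of the old PBS group, not between groups. Each gene's deviation from its own mean over the 9 libraries was taken on the log2 scale. In old PBS 4 all 31 core and regulatory subunits were above their mean, by a median of 0.42 (range 0.20 to 0.68), and 30 of the 31 had their highest level there. Of the 45 other pathway genes described below, 17 were highest in old PBS 4, and of the 8 myeloid markers 0. The share of all genes highest in that library is not given here, so the count has no background beside it. In young PBS 1, 30 of 31 were above, by a median of 0.16, whereas in young PBS 3 and old PBS 3 there were 1 and 3 above, with medians of -0.17 and -0.13. In the old rMETRNL libraries the medians were -0.14, -0.11 and -0.03.

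**Figure D3:**
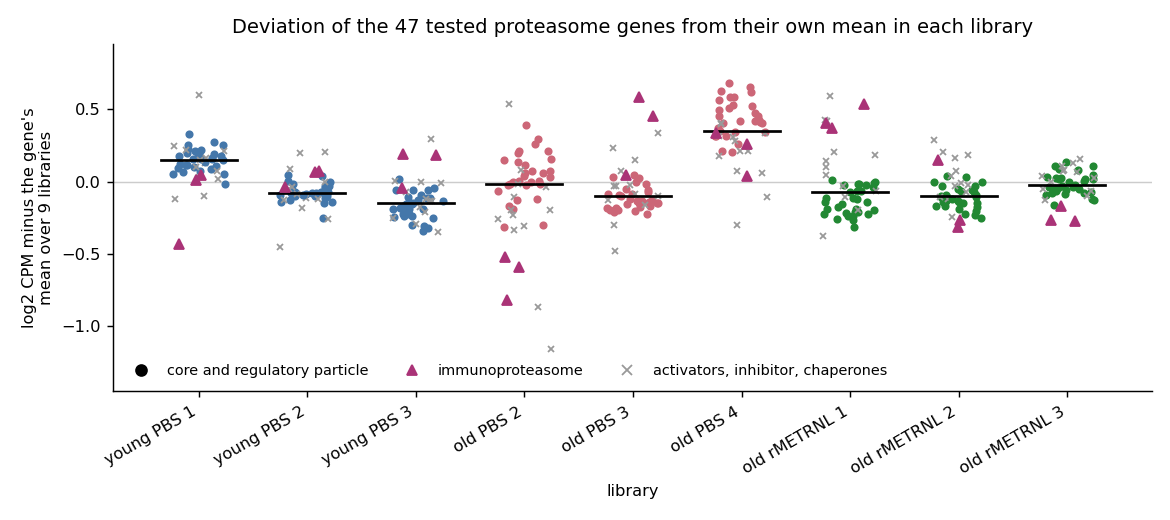
Deviation of each of the 47 tested genes from its own mean over 9 libraries (log2 CPM), by library, with a bar at the median of all 47. The core and regulatory subunits (circles) of old PBS 4 all lie above 0, and the immunoproteasome subunits (triangles) are lowest in old PBS 2.

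The height of old PBS 4 depended in part on the scaling. With total counts in place of TMM library sizes, the median deviation of the 31 genes was 0.15 in old PBS 4, 0.09 in old PBS 3 and -0.10 in old PBS 2, and 18 of the 31 were highest in old PBS 4. On TMM library sizes the median of the 31 was, within the old PBS group, lowest in old PBS 3 and highest in old PBS 4. Over the 9 libraries it was lower still in young PBS 3 and old rMETRNL 1 (-0.17 and -0.14, against -0.13 in old PBS 3). The markers of muscle fibres had median deviations of 0.16, -0.59 and 0.64 in old PBS 2, 3 and 4, and 7 of the 8 were highest in old PBS 4. The brain markers ran in the same order within this group, at summed levels of 87.1, 42.0 and 97.5 CPM. The liver markers ran in another, at 72.8, 27.2 and 6.79 CPM. The part of fibre, brain or liver transcripts in the subunit levels was not tested.

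The immunoproteasome genes followed another order over the libraries. Their median deviation was -0.59 in old PBS 2, where all 3 genes had their lowest level, and 0.45, 0.26 and 0.41 in old PBS 3, old PBS 4 and old rMETRNL 1. The 11 genes of MHC class I peptide loading, among them the peptide transporter genes Tap1 and Tap2, had median deviations of -0.36 in old PBS 2, 0.26 in old PBS 3, -0.02 in old PBS 4 and 0.23 in old rMETRNL 1. The 8 genes of interferon signalling were at -0.26, 0.29, -0.17 and 0.17 in these libraries, and the 8 myeloid markers at -0.46, 0.19, -0.40 and 0.14. Of these libraries, old PBS 2 was below 0 and old PBS 3 and old rMETRNL 1 were above 0 for all 4 lists, and among these lists old PBS 4 was above 0 for the immunoproteasome genes alone. The 6 lymphocyte markers, at low levels, were at -0.14, 0.44, 0.65 and 0.15 in these libraries. These signs, and those in old rMETRNL 2 and 3 (-0.28 and -0.06), were those of the immunoproteasome genes. In young PBS 2 the signs differed, with -0.26 for the lymphocyte markers and 0.06 for the immunoproteasome genes. On total counts the immunoproteasome median in old PBS 4 was -0.02, and that in old PBS 2 and 3 was -0.72 and 0.67. Old rMETRNL 2 had the lists apart, with -0.27 for the immunoproteasome genes and 0.22 for the myeloid markers, and so did old rMETRNL 3, with -0.27 and 0.08. The interferon gamma transcript Ifng itself had at most 0.226 CPM in any library. These are descriptions over 9 libraries, and the part of leukocytes in the immunoproteasome values was not tested.

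**Figure D4:**
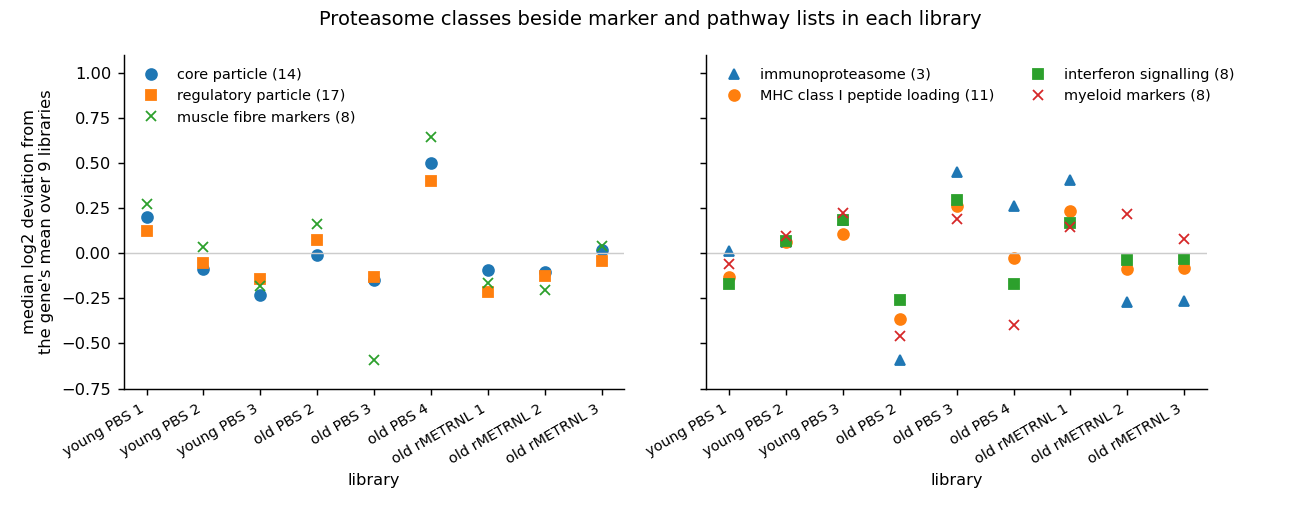
Median log2 deviation from the mean over 9 libraries for proteasome classes and for marker and pathway lists (number of genes in parentheses), by library. Core and regulatory particle are highest in old PBS 4 with the fibre markers (left), and immunoproteasome genes are lowest in old PBS 2 with the peptide loading, interferon and myeloid lists (right).

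The spread within the old PBS group was larger than in the others for the members and for all genes alike. The SD of log2 CPM within a group had a median over the 47 members of 0.17 in young PBS, 0.31 in old PBS and 0.11 in old rMETRNL. Over the 16124 genes kept in the 9 libraries the medians were 0.21, 0.37 and 0.18. Over the 7341 of these genes whose mean level lay in the range of most members, they were 0.15, 0.29 and 0.13. Beside genes of like level, the members thus spread slightly more in young and old PBS and slightly less in old rMETRNL. Over the 9 libraries the least variable members were Psme3 with a coefficient of variation of 8.27%, Psmf1 with 8.48% and Psmd13 with 8.76%. The most variable tested members were the core chaperone Psmg3 with 30.1% and Psmb8 with 29.1%. Psmg3 had a mean of 3.78 CPM, which limits its precision.

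In old PBS against young PBS muscle, which differ in age, no proteasome gene passed the threshold. The old PBS libraries also held the brain and liver transcripts described above, and the part of age cannot be told apart from that difference. Most core and regulatory genes had somewhat higher means in old PBS, by less than the spread between libraries. The regulatory subunits were higher in 17 of 17 and the core subunits in 12 of 14, with median log2 fold changes of 0.19 and 0.17. The activators had a median of 0.00. With edgeR's quasi-likelihood test and Benjamini-Hochberg adjustment 0 of 47 genes were below an adjusted p of 0.05, where 0.0643% of all genes were called. DESeq2 called 0 as well, against 1.42% of all genes, and 0 of 47 were below an unadjusted p of 0.05, against 5.91%.

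The median log2 fold change of the 47 genes was 0.14, beside 0.01 for the 15560 genes tested, and 39 of 47 (83.0%) were higher, beside 52.1% of all genes. These 39 are not independent, since they share the 6 libraries. Without old PBS 4 the median was -0.001 and 23 of 47 were higher. It was 0.235 without young PBS 1 (44 higher) and 0.08 without young PBS 3 (33 higher). The old PBS libraries lay all above the young ones for 0 members and all below them for 0, against 5.26% and 5.25% of all genes. The lowest unadjusted p was that of Psmb2, whose test was picked after its values were seen, with a log2 fold change of 0.36 ± 0.22 (SE, 95% interval -0.15 to 0.87, adjusted p = 0.994). For 45 of 47 genes the 95% interval lay within a 2-fold change in either direction, against 65.2% of all genes, and the exceptions were Psme2b and Psmg3. Such shares of all genes, here and in the comparisons below, cover every level kept by the filter. The intervals of genes of like level were not set apart.

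The immunoproteasome genes differed between old and young PBS by less than their errors. The log2 fold change was 0.11 ± 0.31 (SE, interval -0.59 to 0.81) for Psmb8, 0.17 ± 0.29 (-0.51 to 0.84) for Psmb9 and -0.19 ± 0.19 (-0.63 to 0.24) for Psmb10, each with an adjusted p of 0.994. Without old PBS 3 those of Psmb8 and Psmb9 were -0.20 and -0.03. Psme1 and Psme2 had log2 fold changes of 0.00 ± 0.18 (-0.42 to 0.43, adjusted p = 0.999) and -0.02 ± 0.15 (-0.37 to 0.33, adjusted p = 0.996).

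In old rMETRNL against old PBS muscle, which differ in METRNL treatment, no proteasome gene passed the threshold either. Here too the brain and liver transcripts of old PBS cannot be told apart from the treatment. All 31 core and regulatory subunits had lower means in old rMETRNL, with medians of -0.22 for the core and -0.27 for the regulatory particle. These 31 are not independent, since they share the same libraries, and the old PBS libraries also serve in the comparison with young PBS. The chaperones had medians of 0.11 (core) and 0.15 (base), and the activators of 0.02. By edgeR 0 of 47 genes were called, where 0.108% of all genes were, and 0 by DESeq2, where 1.78% were. At an unadjusted p under 0.05 there were 0, against 8.07% of all genes.

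Over the 47 genes the median was -0.17, beside -0.01 for the 15682 genes tested, and 38 of 47 (80.9%) were lower, beside 50.6% of all genes. Without old PBS 4 the median was -0.03, with 27 of 47 lower and 22 of the 31 core and regulatory subunits lower. On total counts without TMM the median was -0.04, where that of all genes was 0.09, and 27 of the 31 were lower. Old rMETRNL libraries lay all below the old PBS ones for Psmc4, Psmd11 and Psmd13, 3 of 47 against 5.69% of all genes, and all above them for 0, against 6.99%. Psmd13, a lid subunit, was at 96.8, 100 and 113 CPM in old PBS and at 91.0, 90.2 and 95.3 in old rMETRNL, a gap smaller than the spread within either group.

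Values for the lowest p are given as a description, since these genes were named after their values were seen. Psmd11 had a log2 fold change of -0.36 ± 0.18 (SE, interval -0.76 to 0.05, adjusted p = 0.662). Psmd2, a large scaffold subunit of the base, was at 299, 215 and 329 CPM in old PBS and at 203, 214 and 231 in old rMETRNL, with -0.38 ± 0.21 (-0.86 to 0.09, adjusted p = 0.682). Old PBS 3 lay among the old rMETRNL libraries for Psmd2. Psmb8, Psmb9 and Psmb10 had log2 fold changes of -0.09 ± 0.36 (-0.91 to 0.72, adjusted p = 0.966), -0.12 ± 0.30 (-0.80 to 0.56, adjusted p = 0.937) and 0.22 ± 0.22 (-0.28 to 0.73, adjusted p = 0.816). Psme1 and Psme2 had 0.02 ± 0.18 (-0.39 to 0.43, adjusted p = 0.984) and 0.08 ± 0.16 (-0.29 to 0.45, adjusted p = 0.92). A 2-fold change lay outside the interval for 45 of 47 genes, against 63.3% of all genes.

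Leaving out old PBS 3 raised the number of genes called, though not that of members. Without it edgeR called 2.52% of all genes in old against young PBS and 9.76% in old rMETRNL against old PBS, and 0 of 47 members in either. At an unadjusted p under 0.05 there were 3 of 47 members (Psmb2, Psmd1 and Psme4), against 20.9% of all genes, and 11 of 47, against 27.6%. The 11 were Psmb2, 3 ATPases (Psmc2, Psmc3 and Psmc6), 6 other regulatory subunits (Psmd1, Psmd2, Psmd4, Psmd6, Psmd11 and Psmd12) and Psme4. The median log2 fold changes of the 47 were 0.24 and -0.26 without old PBS 3.

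**Figure D5:**
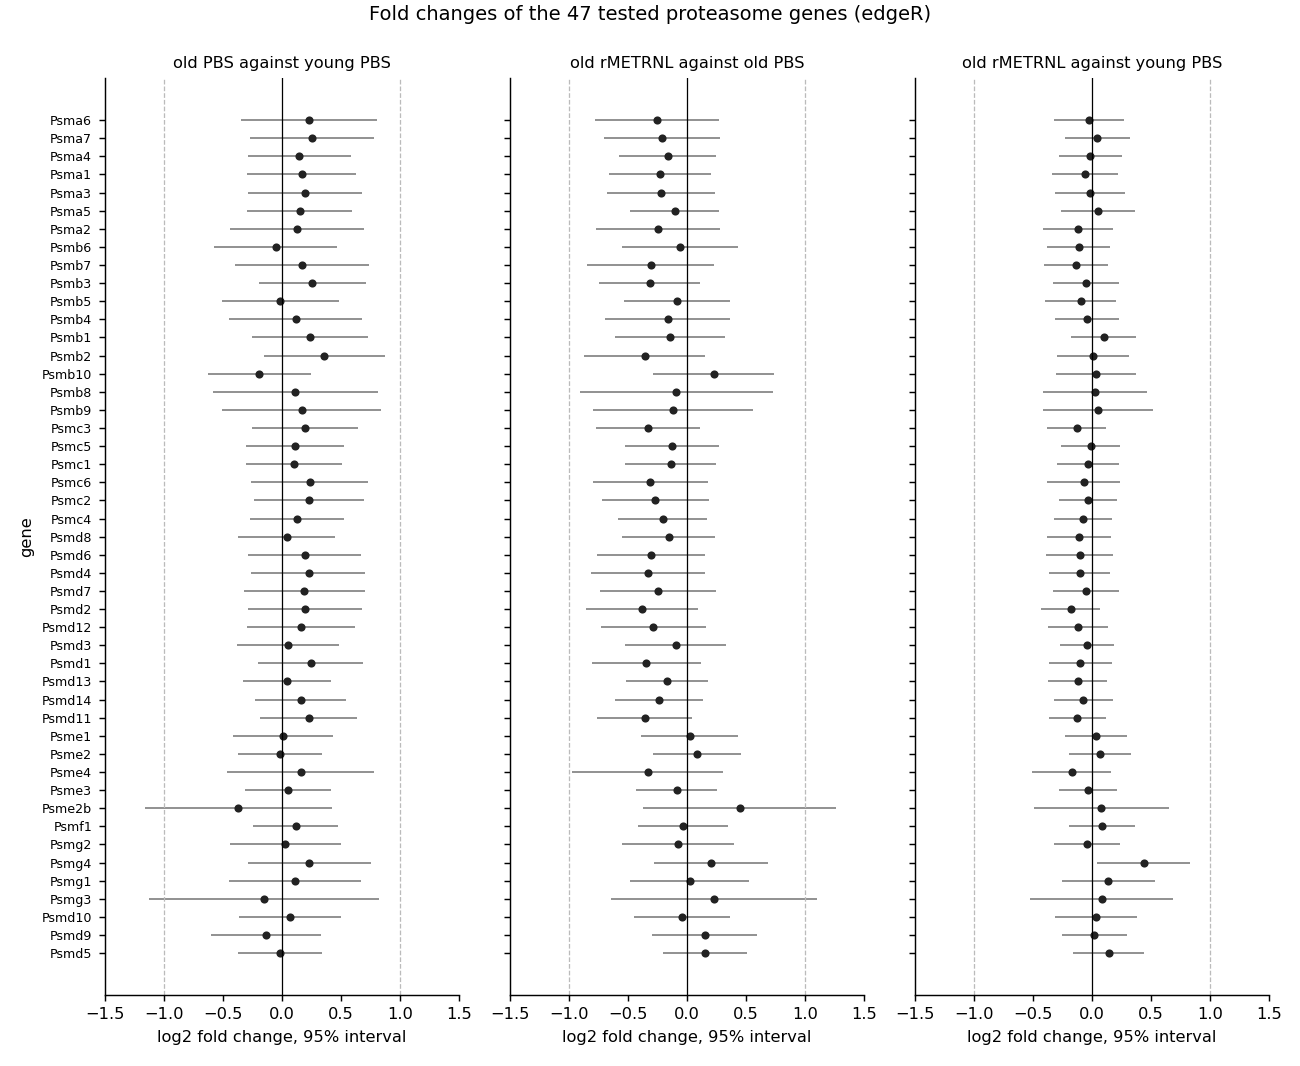
Log2 fold change (points) with 95% interval (bars) of the 47 tested genes in the 3 comparisons, ordered by role and level; dashed lines mark 2-fold. Intervals are narrower in old rMETRNL against young PBS, where Psmg4 is the gene whose interval leaves out 0.

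Old rMETRNL and young PBS muscle, compared to see how far treated old muscle lies from young, gave the narrowest intervals. The members differed little in either direction, with a median log2 fold change of -0.04 beside 0.00 for the 15396 genes tested, 17 being higher and 30 lower. Without young PBS 1 the median was 0.05, with 32 of 47 higher, and without young PBS 3 it was -0.11, with 38 of 47 lower. Without old rMETRNL 2 and without old rMETRNL 3 it was -0.02 and -0.06. The core, regulatory, immunoproteasome and activator genes had medians of -0.03, -0.10, 0.04 and 0.03. By edgeR and by DESeq2 0 members passed the adjusted threshold, as did 0% of all genes by either tool. The interval lay within a 2-fold change for 47 of 47 genes, against 81.7% of all genes. Its half-width had a median of 0.28, against 0.47 in old against young PBS.

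A single member had an unadjusted p under 0.05, 1 of 47 against 2.41% of all genes. The number was 0 without young PBS 2, without young PBS 3 and in 1 fit over all 9 libraries, and 2 without old rMETRNL 3. It was Psmg4, a small chaperone of core assembly. Psmg4 was at 9.41, 6.71 and 7.72 CPM in young PBS, at 8.01, 8.56 and 11.4 in old PBS and at 12.3, 10.3 and 9.68 in old rMETRNL. Every old rMETRNL library was above every young one, which held for 3.94% of all genes, and 2.96% of all genes were lower in every library, with 0 members among them. The log2 fold change was 0.44 ± 0.18 (SE, interval 0.05 to 0.83, unadjusted p = 0.0321, adjusted p = 1). Psmb8, Psmb9, Psmb10, Psme1 and Psme2 had log2 fold changes of 0.03 ± 0.20, 0.05 ± 0.21, 0.04 ± 0.15, 0.03 ± 0.12 and 0.07 ± 0.12, each with an adjusted p of 1. The comparisons share libraries, each group serving in a pair of them, so their values are not independent of each other.

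None of the activators, nor the inhibitor, passed the threshold in any of the 3 comparisons. Psme1 was at 55.9, 50.2 and 44.7 CPM in young PBS, at 44.0, 45.1 and 62.4 in old PBS and at 55.5, 46.7 and 51.7 in old rMETRNL. Psme2 was at 42.9, 36.6 and 39.8 CPM in young PBS, at 34.1, 42.1 and 41.7 in old PBS and at 46.2, 42.1 and 36.7 in old rMETRNL. Both partners of PA28 stayed within a narrow band, and the groups overlapped. Psme3, which encodes the nuclear PA28 gamma, was at 70.0, 60.3 and 57.0 CPM in young PBS, at 66.0, 57.3 and 70.7 in old PBS and at 59.9, 59.5 and 63.5 in old rMETRNL. Psme4, which encodes the large activator PA200, was at 248, 280 and 223 CPM in young PBS, at 356, 175 and 308 in old PBS and at 189, 206 and 272 in old rMETRNL. The old PBS libraries held both the highest and the lowest level of Psme4. Psmf1 was at 17.3, 17.5 and 18.5 CPM in young PBS, at 18.1, 18.2 and 21.5 in old PBS and at 18.2, 21.1 and 17.3 in old rMETRNL, the groups overlapping.

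Psme2b is a single-exon copy of Psme2 on another chromosome (chr11:48945354-48946190, minus strand), and the counts of the 2 genes are uncertain for that reason. Its coding sequence differed from that of Psme2 (chr14:55587441-55591113, minus strand) at 5 of 717 bases, with 311 identical bases as the longest run. The coding stretch with the most differences, bases 484 to 543 of each coding sequence, is shown with the 3 different bases in capitals.
Psme2: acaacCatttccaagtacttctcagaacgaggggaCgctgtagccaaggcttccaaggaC
Psme2b: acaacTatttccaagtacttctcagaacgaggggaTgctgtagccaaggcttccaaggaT
Coding reads that cover none of the 5 different bases cannot be assigned to a single copy, and the transcripts outside the coding sequence were not compared. Psme2b received 47, 61 and 64 counts in young PBS, 24, 79 and 38 in old PBS and 83, 51 and 65 in old rMETRNL, which is 4.52% to 8.77% of the counts of both genes.

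The assembly chaperones were low, and none passed the threshold. The base chaperone Psmd5 was at 31.9, 24.4 and 29.2 CPM in young PBS, at 28.8, 28.5 and 27.0 in old PBS and at 27.1, 35.6 and 31.3 in old rMETRNL. Psmd10, the base chaperone also known as gankyrin, was at 15.01, 12.0 and 11.2 CPM in young PBS, at 12.1, 14.4 and 13.6 in old PBS and at 14.7, 11.9 and 12.4 in old rMETRNL. Their log2 fold changes were -0.02 and 0.07 in old against young PBS, with intervals of -0.38 to 0.34 and -0.36 to 0.50. The core chaperone Psmg2 was at 21.5, 21.7 and 18.8 CPM in young PBS, at 16.2, 20.1 and 27.0 in old PBS and at 17.8, 21.0 and 21.4 in old rMETRNL. Psmg3 was at 5.43, 3.16 and 2.93 CPM in young PBS, at 1.61, 4.54 and 4.15 in old PBS and at 4.82, 3.56 and 3.80 in old rMETRNL. Both were lowest in old PBS 2, and the groups overlapped.

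Other genes of the pathway were taken from a fixed list of 45 in the table, of which 44 were tested. In each comparison 0 of 44 passed the adjusted threshold, and at an unadjusted p under 0.05 there were 0, 0 and 1, where 5.91%, 8.07% and 2.41% of all genes were. The 1 was Ubqln2, a ubiquitin shuttle, in old rMETRNL against young PBS, with a log2 fold change of -0.29 ± 0.11 (SE, adjusted p = 1). In old against young PBS 31 of the 44 were higher, with a median of 0.10, beside 52.1% of all genes. In old rMETRNL against old PBS 31 were lower, with a median of -0.13, beside 50.6% of all genes. Both comparisons share the old PBS libraries.

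On TMM library sizes Adrm1, Sem1, Pomp and Nfe2l1 were highest in old PBS 4, like 36 of the 47 tested members, but this did not hold for all genes close to the particle. On total counts 18 of the 47 were highest there. Of the 6 proteasome-bound enzymes and adaptors listed, 3 were highest in old PBS 4 and 3 in old PBS 2. Of the 4 regulator genes listed, Nfe2l1 among them, 2 were highest in old PBS 4, 1 in old PBS 2 and 1 in old PBS 3. The share of all genes highest in each library is not given here, so these counts have no background. Adrm1, a ubiquitin receptor of the regulatory particle, was at 73.5, 73.5 and 64.6 CPM in young PBS, at 57.1, 59.9 and 100 in old PBS and at 67.0, 75.1 and 66.8 in old rMETRNL. Sem1, the smallest lid subunit, was at 65.0, 52.3 and 43.7 CPM in young PBS, at 35.9, 44.3 and 78.0 in old PBS and at 56.1, 57.7 and 53.0 in old rMETRNL. Pomp, the chaperone that completes the core, was at 93.8, 76.7 and 75.7 CPM in young PBS, at 84.9, 80.8 and 123 in old PBS and at 85.9, 80.7 and 84.0 in old rMETRNL. Nfe2l1 was at 602, 712 and 582 CPM in young PBS, at 834, 581 and 839 in old PBS and at 587, 593 and 602 in old rMETRNL. Old PBS 2 and 4 lay above and old PBS 3 below every other library for Nfe2l1. Its log2 fold change was 0.25 ± 0.23 in old against young PBS and -0.34 ± 0.22 in old rMETRNL against old PBS (edgeR, adjusted p = 0.994 and 0.724).

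Genes around the immunoproteasome were not all highest in the same library. Of the 11 genes of peptide loading, 5 had their highest level in old PBS 3, whereas 4 peaked in old rMETRNL 1 and 2 in old PBS 2, and of the 8 interferon genes 3 were highest in old PBS 3. These counts, too, have no share of all genes beside them. Tap1, beside Psmb9 in the MHC, was at 20.9, 33.1 and 29.6 CPM in young PBS, at 18.8, 39.0 and 25.1 in old PBS and at 34.3, 21.6 and 21.4 in old rMETRNL. Tap2, beside Psmb8, was at 17.1, 17.8 and 20.5 CPM in young PBS, at 11.6, 27.4 and 19.8 in old PBS and at 22.1, 18.9 and 17.8 in old rMETRNL. B2m, the light chain of MHC class I, was at 312, 346 and 340 CPM in young PBS, at 266, 464 and 392 in old PBS and at 369, 297 and 334 in old rMETRNL. For Tap1, Tap2 and B2m old PBS 2 was the lowest library and old PBS 3 the highest. Irf1, a transcription factor induced by interferon, was at 25.3, 29.7 and 30.4 CPM in young PBS, at 17.4, 31.7 and 25.1 in old PBS and at 36.8, 25.8 and 27.6 in old rMETRNL. The log2 fold changes of these 4 genes lay between -0.20 and 0.28 over the 3 comparisons, with adjusted p-values of at least 0.79.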

How the data were processed

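RNA-seq libraries of 3 groups were compared. The authors deposited raw counts per Ensembl gene, with replicates apart and without normalization. Per the methods, NEBNext Ultra libraries were sequenced paired-end and mapped to the mouse genome; the submitters' processing notes name STAR, featureCounts and mm9. Versions, annotation and strand setting are not given in the sources used here. All 9 columns were used.

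Symbols, positions and transcript lengths came from GENCODE M21 (GRCm38), in which 54495 of 54532 identifiers were found. Groups were compared in pairs on 6 libraries with edgeR 4.0.16 (R 4.3.3): filterByExpr, TMM, glmQLFit, glmQLFTest, Benjamini-Hochberg adjustment, threshold 0.05. Standard errors and 95% intervals follow from the F statistic. CPM use TMM factors from all 9 libraries. Lengths are those of the principal transcript. DESeq2 1.42.0 was an alternative. The edgeR comparison was tested on simulated data modelled on old rMETRNL and young PBS only, with changes larger than those of the members. The simulation did not cover the more uneven old PBS libraries.

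The 49 genes and all lists were chosen with earlier results of these data known. Per-library values are given for catalytic subunits, activators, Psmf1, Psma8, Psmb11 and the highest and lowest member of each role. Tests are given for Psmb8, Psmb9, Psmb10, Psme1, Psme2 and members with an unadjusted p under 0.05, up to 4 in each direction. Among pathway genes, Tap1, Tap2, B2m, Irf1, Nfe2l1, Pomp, Sem1 and Adrm1 are named, and 1 other gene is not reported here. Paaf1 of the list matched no symbol. Other names were chosen after their values were seen. Alternatives were other size factors, library size alone, other filters, DESeq2, 1 fit of all libraries, a replicate block and each library left out.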

Additional observations from a re-analysis of the deposited data

How the results depend on the processing

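The count of proteasome genes past the threshold was 0 in each comparison under all 39 alternative fits, the replicate block included, so the alternatives changed no call. Over all genes, the calls were 10 in old against young PBS, but 265 with DESeq2, 354 without a filter, 3 with at least 10 counts in every library, 63 in 1 fit of all libraries, 50 with the replicate block and 2 to 401 with a library left out. In old rMETRNL against old PBS they were 17, but 354, 740, 1, 71, 66 and 3 to 1560, and in old rMETRNL against young PBS 0, but 132 without a filter and up to 1 with a library left out. The medians of the lists stayed within 1 SD of the library means in 191 alternative values and moved further in 4. These were the 47 genes and the regulatory particle in old rMETRNL against old PBS with the replicate block (0.015 and -0.086), and the activators there with library size alone (0.145). The fourth was the activators in old rMETRNL against young PBS with a library left out (-0.047 to 0.058). Fits with the replicate block use the shared numbers only, which leaves out old PBS 4, young PBS 1 and old rMETRNL 1 where old PBS is compared. The numbers were not taken to pair the libraries, since the labels give them no shared origin and same-numbered deviations correlated at 0.114 and 0.412, at -0.049 and -0.316, and at 0.023, -0.051 and -0.178 in the 3 comparisons. The libraries of shared number correlated best with their own number in old against young PBS, which has 2 such pairs, and no library did in the last comparison, which has 3. With the block, the log2 fold changes of Psmb8, Psmb9 and Psme1 in old against young PBS were -0.097, -0.184 and -0.087, and that of Psmb8 in old rMETRNL against young PBS was -0.024, all of the other sign. Psme1 in old against young PBS also had the other sign with library size alone (-0.066) and without a filter (-0.003). With each library left out, old against young PBS gave -0.198 to 0.423 for Psmb8, -0.03 to 0.426 for Psmb9, -0.174 to 0.098 for Psme1 and -0.08 to 0.076 for Psme2. Old rMETRNL against old PBS gave -0.421 to 0.218 for Psmb8, -0.376 to 0.073 for Psmb9, -0.069 to 0.189 for Psme1 and -0.01 to 0.159 for Psme2. Old rMETRNL against young PBS gave -0.303 to 0.173 for Psmb8, -0.187 to 0.175 for Psmb9, -0.115 to 0.193 for Psmb10, -0.047 to 0.11 for Psme1 and -0.014 to 0.151 for Psme2. The cause of these shifts was not tested. With CPM in place of values per kilobase, the immunoproteasome share was 13.57% in young PBS, 13.23% in old PBS and 14.6% in old rMETRNL, and with merged exons as length, added after seeing the data, 9.71%, 9.28% and 10.4%. On TMM library sizes the proteasome took up 0.4381% of the young PBS, 0.4864% of the old PBS and 0.4181% of the old rMETRNL libraries.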
